A study of Mus musculus with 24 samples.

Results

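The 29 genes described here make, sense, store and move cholesterol. They were chosen by name, with earlier results of these data known, out of 34787 genes named on the arrays. They are 17 enzymes of cholesterol synthesis, 4 genes of sterol sensing, 3 of the acetoacetyl-CoA thiolase and sterol acyltransferases and 5 of sterol transport. All 29 had a probe, 40 probes in all. The genes were measured in mice that carry human PER1, a component of the circadian clock. The mutant mice carry human PER1 with a serine replaced by glycine (S714G), and their controls carry human PER1 with that serine intact (S714), so every group holds a human PER1 allele. Liver and white adipose tissue were taken at ZT13 and at ZT1, that is 13 h and 1 h after lights on, which gave 8 groups of 3 arrays, 24 arrays in all. Per the labels, the mice were male, 2 months old and of C57BL/6 background, and had spent 10 days on light-dark cycles. The promoter and copy number of the human allele, and the state of the mouse Per1 gene, are not given in the sources used here.

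Cholesterol is built from acetyl-CoA through mevalonate, farnesyl diphosphate, squalene and lanosterol. When sterols are low in the endoplasmic reticulum, SCAP carries the transcription factor SREBP-2, the product of Srebf2, to the Golgi for activation, and the INSIG proteins hold SCAP back when sterols are high. The liver is a main site of synthesis and exports sterol into bile through the ABCG5 and ABCG8 half-transporters. White adipose tissue mainly holds cholesterol that it has taken up.

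Each RNA was labelled with Cy3 and hybridised to an Agilent mouse array. A level here is the log2 of the processed signal relative to the array's own 75th percentile, and each gene is read from its brightest probe, so levels are compared between samples and not between genes. Between 45.5% and 71.2% of an array's probes were well above background. Summed signals of 8 hepatocyte markers were 1060 to 2090 times the 75th percentile in liver and 123 to 600 times in adipose tissue. Those of 8 adipocyte markers were 124 to 356 times in liver and 514 to 890 times in adipose tissue. The mean log2 level of the adipocyte markers was -0.62 to 0.02 in liver and 5.56 to 6.1 in adipose tissue, so their liver sums follow the brightest of them. Another scaling, quantile normalisation, moved the median difference of all genes by over 0.1 in S714G minus S714 livers at ZT1 (-0.20 by the 75th percentile, -0.05 by quantiles), between times in S714 livers and in both adipose genotypes, in the liver interaction and between tissues, so all-gene medians are given beside those of the members. The arrays lay on 3 slides of 8. Slide 1 held all S714 ZT1 arrays, and of the liver arrays no others, so that liver genotype at ZT1 and slide cannot be told apart within liver. At ZT13 all liver arrays lay on slide 3 except S714 replicate 1, which lay on slide 2. A fit over all 24 arrays with slide as a term takes the step between slides 1 and 2 from a single group, the S714G adipose arrays at ZT1, with replicates 1 and 2 on slide 1 and replicate 3 on slide 2, and the step between slides 2 and 3 from the S714 liver arrays at ZT13. The series' design text calls the 3 arrays of a group independent repeats without saying what was repeated, so p-values measure the spread between these arrays. In whole tissue, fewer cells of a type and less RNA per cell cannot be told apart.

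At ZT13, S714G livers differed from S714 livers in transcript levels of a sterol sensor and of 2 enzymes of the mevalonate steps. They also differed in transcripts of an endosomal cholesterol protein and of a sterol acyltransferase. Insig2, Mvd and Hmgcs1 were higher in S714G livers and Npc1 and Soat2 were lower. These 5 of 29 members, 17.2%, passed an adjusted p of 0.05 (limma, Benjamini-Hochberg over 21848 genes), against 3.03% of all genes, of which 1.52% were higher and 1.52% lower. Since the members were chosen with earlier results of these data known, the 2 shares are descriptive and do not test the module. The median difference over the 29 members was 0.20 on the log2 scale, against 0.02 over all genes, and 19 of 29 were positive.

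Insig2 encodes one of the INSIG proteins that retain SCAP, and in mouse liver one of its transcripts is known to be repressed by insulin. Its levels were 3.87, 3.94 and 3.88 in S714G livers at ZT13, against 2.59, 2.46 and 2.00 in S714 livers. The S714G arrays were nearly identical and all lay above the S714 arrays. The difference was 1.55 (SE 0.173, limma adjusted p = 0.00102). On slide 3 alone, with 3 S714G against 2 S714 arrays, it was 1.67 (limma adjusted p = 0.0143), where 6 members passed against 4.19% of all genes. A second Insig2 probe, on another transcript record, gave 1.51 (limma adjusted p = 0.00165).

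Mvd encodes mevalonate diphosphate decarboxylase, which makes isopentenyl diphosphate. Its levels were 3.06, 2.79 and 3.06 in S714G livers, against 1.27, 0.82 and 1.0 in S714 livers. No array of one genotype came near those of the other. The difference of 1.94 (SE 0.285, limma adjusted p = 0.00409) was the largest of the module at this time, and on slide 3 alone it was 2.06 (limma adjusted p = 0.0063).

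Hmgcs1, the cytosolic synthase that makes HMG-CoA, had levels of 5.35, 5.35 and 5.40 in S714G livers, against 4.73, 4.84 and 4.75 in S714 livers. The groups did not overlap, yet the difference was small at 0.60 (SE 0.139, limma adjusted p = 0.0424). Leaving out any 1 of the 6 arrays kept it between 0.58 and 0.63 with an adjusted p of 0.104 to 0.158, so the call was lost in each case. On slide 3 alone its adjusted p was 0.0546.

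The 250 bases before the start of these 3 genes are shown because these are the 3 members called higher. They are from RefSeq on build GRCm38.p6. Capitals mark CCAAT on either strand (written ATTGG on the other), the box bound by NF-Y, and in Hmgcs1 also TCACNCCAC, a form of the sterol regulatory element bound by SREBP proteins. The windows are chr13:119690101-119690350 on the plus strand for Hmgcs1, chr8:122443423-122443672 on the minus strand for Mvd, and chr1:121332590-121332839 on the minus strand for Insig2, the most upstream of its 3 listed starts.
Hmgcs1: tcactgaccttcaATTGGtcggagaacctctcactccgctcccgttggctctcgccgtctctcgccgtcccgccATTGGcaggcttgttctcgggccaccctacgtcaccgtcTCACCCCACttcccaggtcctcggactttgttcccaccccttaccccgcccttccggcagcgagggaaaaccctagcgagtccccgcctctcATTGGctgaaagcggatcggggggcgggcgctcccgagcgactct
Mvd: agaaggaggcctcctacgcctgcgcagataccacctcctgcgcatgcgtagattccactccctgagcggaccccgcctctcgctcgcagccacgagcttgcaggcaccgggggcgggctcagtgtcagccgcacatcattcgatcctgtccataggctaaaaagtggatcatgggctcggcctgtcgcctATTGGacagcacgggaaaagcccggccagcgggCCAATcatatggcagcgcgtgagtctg
Insig2: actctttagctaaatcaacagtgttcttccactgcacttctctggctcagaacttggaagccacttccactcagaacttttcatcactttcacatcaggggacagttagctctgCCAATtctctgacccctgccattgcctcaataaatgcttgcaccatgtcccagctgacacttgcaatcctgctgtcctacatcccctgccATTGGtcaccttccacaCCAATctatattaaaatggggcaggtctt
Hmgcs1 held 1 TCACNCCAC match and 3 CCAAT matches, Mvd held 2 CCAAT matches and Insig2 held 3. Windows were counted for 23 of the 29 members, 30 windows in all. The other 6, Npc1 and Stard4 among them, were left out, so the member shares do not cover them. CCAAT on either strand occurred in 20 of these 30 windows (66.7%), against 33.8% of all 32851 windows. TCACNCCAC on either strand occurred in 1 of 30, in Hmgcs1, against 1.05% of all windows. CACGTG, the E-box that clock activators bind and which reads the same on both strands, occurred in 5 of 30 (in Dhcr7, Hsd17b7, Insig1, Sc5d and Scap), against 6.02% of all windows. TTANGTAA on either strand, the last motif counted, occurred in 0 of 30, against 2.06% of all windows. These are letter matches and not measured binding.

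Among the other enzymes of synthesis, none passed the threshold at ZT13. Lss, which cyclises squalene epoxide to lanosterol, had levels of 0.54, 0.60 and 1.02 in S714G livers, against 0.28, -0.16 and 0.02 in S714 livers, a difference of 0.67 (limma adjusted p = 0.0962). Sqle, the squalene epoxidase, had levels of 1.79, 2.04 and 2.14 in S714G livers, against 1.55, 1.18 and 1.20 in S714 livers, a difference of 0.68 (limma adjusted p = 0.185). Its difference passed the threshold on slide 3 alone, at 0.80 (limma adjusted p = 0.048). The 17 enzymes ran between -0.22 for Msmo1, the C4 methyl oxidase, and 1.94 for Mvd, and 13 of 17 were positive. Without overlap between genotypes, Fdps, farnesyl diphosphate synthase, was at 0.44, Fdft1, squalene synthase, at 0.29, Cyp51, the lanosterol demethylase, at 0.50, Pmvk, phosphomevalonate kinase, at 0.31 and Dhcr7, the 7-dehydrocholesterol reductase, at 0.50, all with limma adjusted p between 0.195 and 0.632. Overlapping were Idi1, the isopentenyl diphosphate isomerase (0.20), Tm7sf2, a sterol C14 reductase (0.18), Mvk, mevalonate kinase (0.14), Sc5d, the sterol C5 desaturase (0.01), Ebp, the sterol isomerase (0.00), Nsdhl (-0.08) and Hsd17b7 (-0.18), both of the C4 demethylation complex. Averaged over the 17 enzymes, the level was 3.28, 3.20 and 3.41 in S714G livers, against 2.92, 2.97 and 2.94 in S714 livers.

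The remaining genes of sterol sensing did not pass. Srebf2, which encodes SREBP-2, differed by 0.85 (limma adjusted p = 0.163) and Insig1, the INSIG gene that SREBP proteins activate, by 0.56 (limma adjusted p = 0.253), each with no overlap between genotypes. Scap differed by -0.26 with overlapping arrays. Over all 29 members, 12 were higher and 4 lower with no overlap between the arrays of the genotypes. Over all genes, 29.2% did not overlap, 13.7% higher and 15.4% lower.

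Npc1 encodes the late endosomal protein that releases cholesterol taken up with lipoproteins. Its levels were 2.10, 2.09 and 2.13 in S714G livers at ZT13, against 3.06, 3.15 and 3.02 in S714 livers. The S714G arrays were nearly identical and all lay below the S714 arrays. The difference was -0.97 (SE 0.124, limma adjusted p = 0.0020), and -0.98 on slide 3 alone (limma adjusted p = 0.0207).

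Soat2 encodes the hepatic and intestinal sterol acyltransferase that forms cholesteryl esters. Its levels were 3.23, 3.65 and 3.06 in S714G livers, against 4.05, 4.07 and 4.17 in S714 livers. All S714G arrays were lower, and they spread more. The difference of -0.78 (SE 0.162, limma adjusted p = 0.0253) lost its call without any 1 array other than S714G replicate 2, with values between -0.80 and -0.66 where it was lost, and on slide 3 alone it was -0.80 (limma adjusted p = 0.0887).

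Acat2, the cytosolic acetoacetyl-CoA thiolase that feeds the pathway, was at 0.02, and Soat1, the widely expressed sterol acyltransferase, at 0.43, each with overlapping arrays. Soat1 entered the liver test only through the S714G groups. It was detected above background on 2 of 3 S714 arrays at ZT13 and 1 of 3 at ZT1, against 3 of 3 S714G arrays at each time.

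The biliary half-transporters lay in the same direction as Npc1 without passing. Abcg8 had levels of -1.81, -1.21 and -1.22 in S714G livers, against -0.04, 0.16 and 0.09 in S714 livers, a difference of -1.48 (limma adjusted p = 0.151). Abcg5 had levels of 3.21, 3.60 and 3.41 in S714G livers, against 4.22, 4.25 and 4.41 in S714 livers, a difference of -0.89 (limma adjusted p = 0.294). Npc2, which hands cholesterol to NPC1, was at 0.22 and Stard4, a cytosolic sterol carrier, at -0.19, both with overlapping arrays. Neither half-transporter overlapped between genotypes, and on slide 3 alone both passed, at -1.54 for Abcg8 (limma adjusted p = 0.0292) and -0.93 for Abcg5 (limma adjusted p = 0.0419). With slide as a term over 24 arrays, Insig2, Mvd and Npc1 alone passed among the 29, against 2.89% of all genes. None of the 8 hepatocyte markers passed in this comparison, with summed signals of 1060 to 1860 in S714G livers and 1250 to 2090 in S714 livers. Of 4 brown adipocyte markers, Cidea and Elovl3 were tested in liver, where both are also known to be expressed, and Elovl3 was higher at 3.01 (limma adjusted p = 8.23e-05). The 3 of these markers in the fit of both tissues summed to 7.81 to 12.9 in S714G livers and 1.34 to 1.68 in S714 livers, and their part in the members' differences was not tested.

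**Figure D1:**
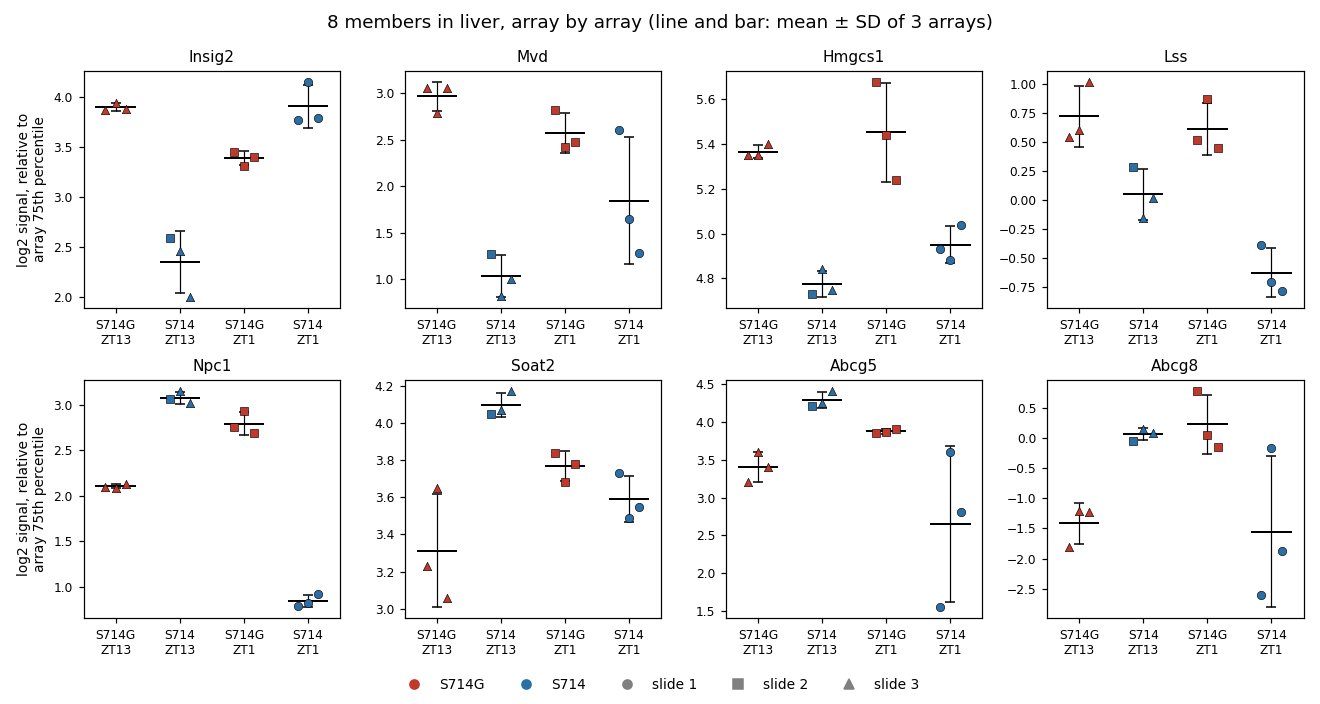
Levels of 8 members in each liver array (log2 signal relative to the array's 75th percentile), with S714G in red, S714 in blue and the slide given by the symbol; lines and bars are the mean ± SD of 3 arrays. At ZT13 Insig2, Mvd and Hmgcs1 sit higher in S714G livers and Npc1, Soat2, Abcg5 and Abcg8 sit lower, while at ZT1 Npc1 is at 2.69 to 2.93 in S714G livers and 0.79 to 0.92 in S714 livers.

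At ZT1, 14 of 29 members passed in S714G against S714 livers, 11 higher and 3 lower. Their share, 48.3%, was close to the 46.6% of all genes called in this comparison, in which every S714 array lay on slide 1 and every S714G array on slide 2. The median difference was 0.35 over the members and -0.20 over all genes. All 5 transport genes were called higher, where 17.0% of all genes were called higher and 29.6% lower. Quantile normalisation gave 12 members higher and 2 lower, and over all genes 4534 higher and 4954 lower in place of 3716 higher and 6459 lower. With no overlap between arrays, 13 members were higher and 3 lower, against 52.9% of all genes, 19.0% higher and 33.9% lower. Of 8 hepatocyte markers 2 were called lower, with summed signals of 1320 to 1600 in S714G livers and 1800 to 1860 in S714 livers. The 8 adipocyte markers summed to 138 to 162 in S714G livers and 230 to 356 in S714 livers. Their mean log2 levels overlapped, at -0.62 to -0.26 in S714G and -0.41 to 0.02 in S714 livers. Of the 6 adipocyte markers tested, 2 were called higher and 3 lower. Of the brown adipocyte markers, 2 of 2 tested were called lower, with sums of 2.63 to 3.2 in S714G and 6.11 to 10.0 in S714 livers. Called lower were also 1 of 3 T cell, 1 of 2 B cell and 1 of 2 skeletal muscle markers. Of 6 macrophage markers 1 was called higher, and of 4 endothelial markers 2 were higher and 2 lower. The part of these lists in the members' differences was not tested.

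Npc1 had levels of 2.76, 2.93 and 2.69 in S714G livers at ZT1, against 0.79, 0.82 and 0.92 in S714 livers. The S714G arrays were thus far higher at ZT1, where they had been lower at ZT13. The difference was 1.95 (SE 0.124, limma adjusted p = 6.78e-06). The slide term left 1.01 (SE 0.293, limma adjusted p = 0.199).

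The other transport genes ran the same way. Stard4 had levels of 1.11, 0.89 and 0.74 in S714G livers, against 0.31, 0.25 and 0.18 in S714 livers (difference 0.66, limma adjusted p = 0.0057). Npc2 had levels of 3.88, 3.55 and 3.53 in S714G livers, against 2.12, 3.22 and 2.62 in S714 livers (difference 1.0, limma adjusted p = 0.00861). The S714G arrays were higher throughout for both, and the S714 arrays of Npc2 were widely spread.

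Abcg8 had levels of 0.78, 0.05 and -0.14 in S714G livers, against -2.61, -0.17 and -1.88 in S714 livers (difference 1.78, limma adjusted p = 0.0124). Abcg5 had levels of 3.85, 3.87 and 3.91 in S714G livers, against 1.55, 3.60 and 2.81 in S714 livers (difference 1.23, limma adjusted p = 0.0215). S714 replicate 1 was the lowest array for both, and without it Abcg5 differed by 0.67 (limma adjusted p = 0.031). Abcg5 lost its call without S714G replicate 2 or 3.

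Among the enzymes, 4 were called higher and 2 lower. Nsdhl had levels of 4.23, 4.07 and 3.93 in S714G livers, against 2.54, 2.98 and 2.32 in S714 livers, a difference of 1.46 (limma adjusted p = 0.000401). Lss had levels of 0.52, 0.87 and 0.45 in S714G livers, against -0.39, -0.71 and -0.79 in S714 livers, a difference of 1.24 (limma adjusted p = 0.000685). Dhcr7 differed by 0.95 (limma adjusted p = 0.00185) and Hmgcs1 by 0.51 (limma adjusted p = 0.0124). Lower were Ebp at -0.64 (limma adjusted p = 0.0218) and Pmvk at -0.51 (limma adjusted p = 0.0466), where a second Pmvk probe was at 0.14 (limma adjusted p = 0.519). Mvd differed by 0.73 (limma adjusted p = 0.0551), with S714 replicate 1, at 2.60, within the S714G arrays (2.42 to 2.82) and the other S714 arrays below them at 1.65 and 1.28. Without that replicate Mvd differed by 1.10 (limma adjusted p = 0.0021).

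Of the sensors, Insig1 was higher in S714G livers at 0.67 (limma adjusted p = 0.0285) and Insig2 was lower at -0.51 (limma adjusted p = 0.031). Insig2 levels were 3.45, 3.31 and 3.40 in S714G livers, against 3.77, 4.15 and 3.79 in S714 livers, the opposite order to ZT13. Acat2 was higher at 0.42 (limma adjusted p = 0.0234). The other 15 members did not pass and ran between -0.47 for Mvk and 0.92 for Soat1. Mvd, Soat1 and Scap, at 0.39, came closest to the threshold, and Soat2, called at ZT13, was at 0.18 (limma adjusted p = 0.376). Soat1 was in this test only because it was detected in the S714G groups, and 1 of 3 S714 arrays was above background.

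Calls for Npc1, Nsdhl, Lss, Dhcr7, Stard4, Npc2 and Abcg8 at ZT1 held with each of the 6 arrays left out. Insig1, Acat2, Insig2 and Pmvk each lost theirs in 4 of 6 such fits, among them every fit without an S714G array, Ebp without either replicate 3 and Hmgcs1 without S714G replicate 1. The count of members called was 8 without S714G replicate 3 and 9 without S714G replicate 1 or replicate 2. In the fit with slide as a term, Insig2 alone was called, at -1.65 (limma adjusted p = 0.0402), against 0.398% of all genes, and 7 of the 14 members turned sign. That step between slides rests on 1 adipose array against 2.

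**Figure D2:**
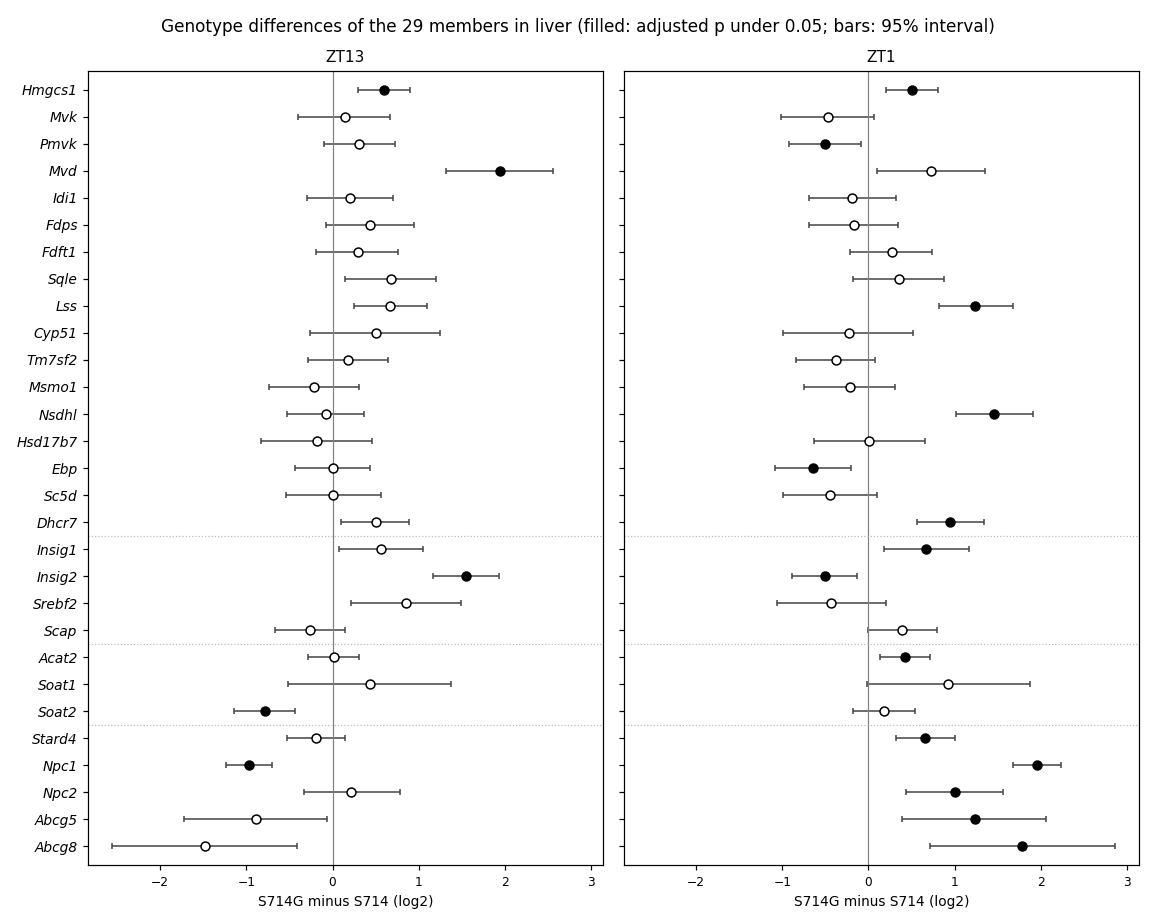
Difference between S714G and S714 livers (log2) for the 29 members at ZT13 (left) and ZT1 (right), as points with 95% intervals from limma. Filled points have an adjusted p under 0.05, and dotted lines part synthesis, sensing, thiolase and esterification, and transport. Npc1, Abcg5 and Abcg8 lie left of 0 at ZT13 and right of 0 at ZT1, and Insig2 lies the other way round.

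All S714G liver arrays lay on slide 3 at ZT13 and on slide 2 at ZT1, so that time and slide cannot be told apart within them. Between ZT13 and ZT1 in S714G livers, Npc1 alone passed, 1 of 29 members against 2.01% of all genes, at -0.69 for ZT13 minus ZT1 (SE 0.124, limma adjusted p = 0.0183). With slide as a term Npc1 was not called. It lost its call when any 1 of the 6 arrays was left out (adjusted p 0.0544 to 0.0973). Over all genes 440 were called, and 96 to 147 with 1 array left out. Nsdhl was at -0.88 (limma adjusted p = 0.0536) and Abcg8 at -1.65 (limma adjusted p = 0.127). Between times 2 members were higher and 11 lower with no overlap between arrays, against 30.1% of all genes, 15.3% higher and 14.8% lower.

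In S714 livers 15 of 29 members passed, 8 higher and 7 lower at ZT13, a share of 51.7%, against 52.3% of all genes, of which 19.7% were called higher and 32.6% lower. All ZT1 arrays of this comparison lay on slide 1 and none of the ZT13 arrays did. The 17 synthesis enzymes had a median of -0.50, against -0.21 over all genes (-0.05 by quantiles), and 6 of 17 were called lower, a share near the 32.6% of all genes. Of 6 macrophage markers 4 were called lower, with sums of 49.5 to 51.1 at ZT13 and 67.0 to 78.2 at ZT1. Of 6 adipocyte markers tested 1 was called higher and 3 lower. All 8 adipocyte markers summed to 126 to 201 at ZT13 and 230 to 356 at ZT1. Their mean log2 levels overlapped, at -0.41 to -0.34 at ZT13 and -0.41 to 0.02 at ZT1. Of 8 hepatocyte markers 1 was called lower. The part of these lists in the members' differences was not tested. Mvk had levels of 3.28, 3.18 and 3.29 at ZT13, against 5.20, 4.06 and 4.39 at ZT1 (difference -1.30, limma adjusted p = 0.00129), while a second Mvk probe was at -0.17 (limma adjusted p = 0.559). Cyp51 had levels of -1.94, -1.93 and -1.97 at ZT13, against 0.25, -1.33 and -1.13 at ZT1 (difference -1.21, limma adjusted p = 0.0126). ZT1 replicate 1 was the highest array for both genes, and without it Cyp51 differed by -0.71 (limma adjusted p = 0.0148).

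The other enzymes called lower in S714 livers at ZT13 were Pmvk (-1.04), Mvd (-0.81), Fdps (-0.75) and Sc5d (-0.78). Without ZT1 replicate 1, Fdps differed by -0.45, Sc5d by -0.44 and Mvd by -0.44, and Mvd was then no longer called (limma adjusted p = 0.0837). Lss (0.67), Nsdhl (0.66), Acat2 (0.40) and Soat2 (0.51) were called higher. Of these 8 genes only Pmvk kept its call with each array left out. The count of members called was 9 without ZT13 replicate 3.

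Of the 5 transport genes, 4 were called higher at ZT13 in S714 livers. Npc1 levels in S714 livers at ZT13, 3.02 to 3.15, lay far above those at ZT1, 0.79 to 0.92, a difference of 2.23 (SE 0.124, limma adjusted p = 1.31e-06). Abcg5 (1.64), Abcg8 (1.62) and Npc2 (0.85) were also called higher at ZT13. Without ZT1 replicate 1, Abcg5 was at 1.09 (limma adjusted p = 0.00274) and Abcg8, also at 1.09, and Npc2 lost their calls. Abcg8 lost it without ZT1 replicate 3 too, and Npc2 without ZT13 replicate 2. Insig2 was lower at ZT13 by -1.55 (SE 0.173, limma adjusted p = 6.85e-05). When slide was a term, Insig2 alone passed, at -2.45 (limma adjusted p = 0.00405), against 0.741% of all genes, and Npc1 was at 1.27 (limma adjusted p = 0.0988).

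**Figure D3:**
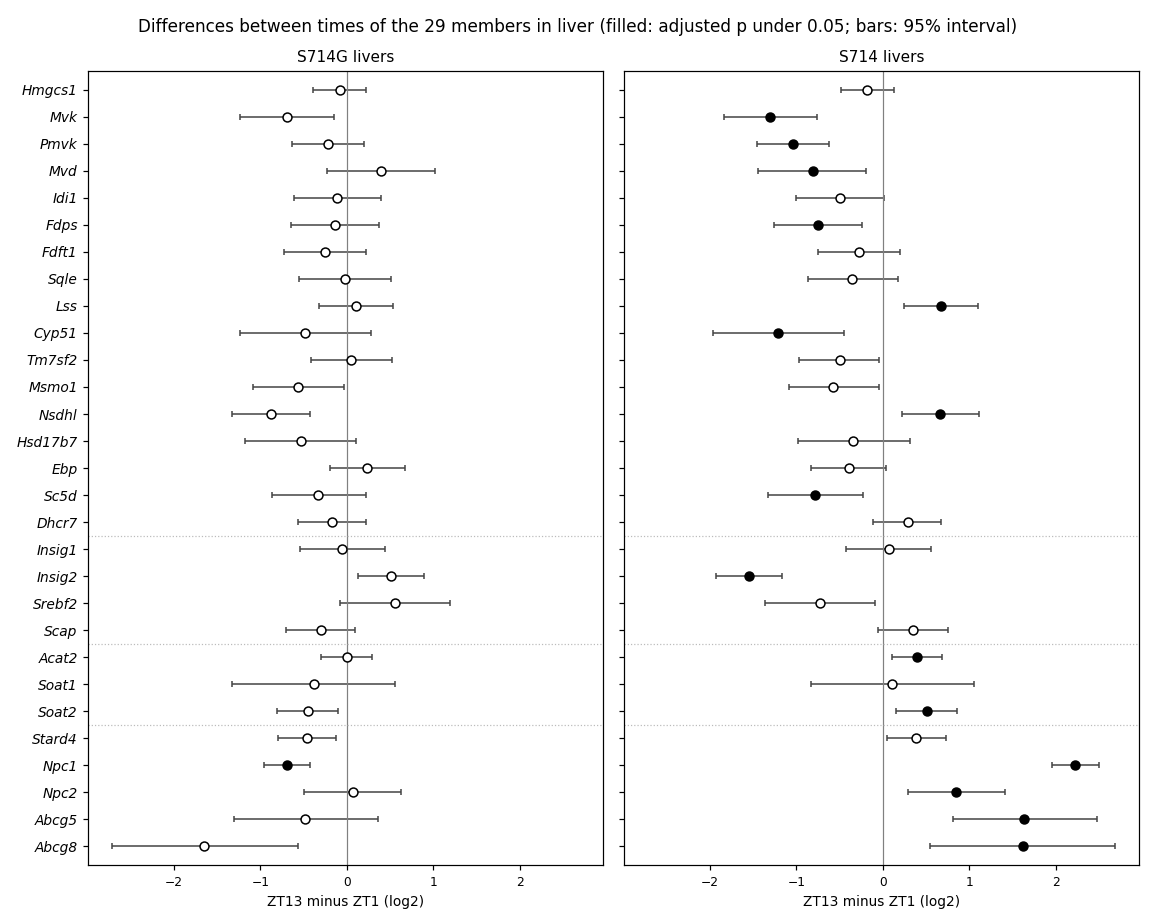
Difference between ZT13 and ZT1 (log2) for the 29 members in S714G livers (left) and S714 livers (right), with 95% intervals from limma; filled points have an adjusted p under 0.05. In S714G livers Npc1 alone is filled, at -0.69, and in S714 livers Npc1 is at 2.23 and Insig2 at -1.55.

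The difference between genotypes in these time changes was tested directly as an interaction, and 10 of 29 members passed, 4 positive and 6 negative, against 31.9% of all genes, of which 19.8% were positive and 12.2% negative. Quantile normalisation gave 2 positive and 6 negative members, and over all genes 2972 positive and 2919 negative in place of 4317 positive and 2661 negative. Positive values mean a larger S714G minus S714 difference at ZT13 than at ZT1. Insig2 was at 2.06 (SE 0.244, limma adjusted p = 0.000336), Srebf2 at 1.28 (limma adjusted p = 0.0339), Mvd at 1.21 (limma adjusted p = 0.0398) and Pmvk at 0.82 (limma adjusted p = 0.0376). Among the 6 negative ones were 4 transport genes, with Npc1 at -2.92 (SE 0.176, limma adjusted p = 4.9e-06), Abcg8 at -3.27, Abcg5 at -2.12 and Stard4 at -0.85. Nsdhl was at -1.55 and Soat2 at -0.96. The slide term left 2 members called, against 1.35% of all genes, Insig2 at 3.32 (limma adjusted p = 0.000185) and Npc1 at -1.99 (limma adjusted p = 0.006). Srebf2, Mvd and Pmvk each lost the call in at least 6 of the 12 fits that left out 1 array.

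Where a gene had several probes, they could differ. The second Insig2 probe in liver had levels of 3.51, 3.39 and 3.49 in S714G and 2.18, 1.96 and 1.73 in S714 at ZT13, and 2.78, 2.87 and 2.68 in S714G and 2.06, 2.70 and 2.32 in S714 at ZT1. It shared the ZT13 difference, but at ZT1 it lay at 0.41 (limma adjusted p = 0.0817) where the brighter probe lay at -0.51, and in S714 livers its time difference was -0.41 (limma adjusted p = 0.0782). A second Mvk probe was higher in S714G livers at ZT1 by 0.98 (limma adjusted p = 0.00576), against -0.47 for the brighter one. A second probe of Hsd17b7 was higher by 1.64 (limma adjusted p = 0.000206), against 0.01. The second Nsdhl (0.69) and Stard4 (0.91) probes were called in the same direction as the brighter ones. The second Tm7sf2 probe had liver group means at ZT1 of 4.71 in S714G and 4.1 in S714. The brighter Tm7sf2 probe lay the other way, at 4.84 and 5.22. In adipose tissue second probes also differed between times. In S714 the second Insig2 probe was at 1.58 to 1.76 at ZT13 and -0.62 to 0.04 at ZT1 (brighter probe 0.24). A second Srebf2 probe was at -1.67 to -1.23 at ZT13 and -0.88 to -0.15 at ZT1 (brighter probe -0.38). In S714G it was at -1.96 to -1.62 and -0.74 to 0.29 (brighter probe 0.01). The times lay on different slides.

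Most of the module was more abundant in liver than in adipose tissue. Of 29 members, 27 passed in liver minus adipose over all 24 arrays, 25 higher and 2 lower, against 75.3% of all genes, of which 42.1% were higher and 33.2% lower, and the median was 1.73 against 0.15 over all genes. In 17 members every liver array lay above every adipose array and in 0 below, and over all genes 23.1% did not overlap, 11.7% higher and 11.4% lower. The calls held with each of the 24 arrays left out.

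The largest differences were in esterification and biliary export. Soat2 had a lowest, median and highest level of 3.06, 3.70 and 4.17 in liver, against -5.45, -3.80 and 0.14 in adipose tissue, a difference of 7.36 (SE 0.336, limma adjusted p = 8.84e-14). Abcg5 ran between 1.55 and 4.41 in liver, against -3.14 and -0.17 in adipose tissue, a difference of 5.89 (limma adjusted p = 6.83e-14). Abcg8 was not well above background on any adipose array, and its liver level was at least 25.9-fold higher than in adipose tissue (limma adjusted p = 1.36e-14). This bound takes each adipose array at its dimmest detected probe, or at the Abcg8 signal where that was brighter.

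Among the enzymes, Tm7sf2 differed most, running between 4.56 and 5.73 in liver, against -0.58 and 2.60 in adipose tissue, a difference of 4.46 (limma adjusted p = 4.58e-14). Fdps (2.33), Dhcr7 (2.28) and Hsd17b7 (2.24) followed, and Stard4 was higher in liver by 3.17 (limma adjusted p = 5.48e-16) and Npc1 by 2.25 (limma adjusted p = 2.27e-13). Hmgcs1 was higher in liver by 0.81, and Acat2, the sensors Insig1, Insig2 and Scap and the remaining 10 enzymes called higher apart from Pmvk ran between 1.07 and 1.90. Mvk (0.09) and Srebf2 (0.04) did not pass. Fdft1, among the enzymes called higher, had a second probe that lay the other way. Its group means were 1.15 to 1.33 in liver, against 1.67 to 2.25 in adipose tissue. With the mean of a gene's probes, Fdft1 was at 0.33 (limma adjusted p = 0.000486). Quantile normalisation turned Mvk to -0.48 and Pmvk, called at 0.34, to -0.26.

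Lower in liver were Npc2, running between 2.12 and 3.88 in liver, against 3.17 and 4.80 in adipose tissue (difference -0.74, limma adjusted p = 0.000227), and Soat1 between -4.62 and -2.36 in liver, against -2.98 and -1.44 in adipose tissue (difference -0.73, limma adjusted p = 0.00504). Their arrays overlapped between tissues. Soat1 was well above background on 9 of 12 liver arrays, and Soat2 on 9 of 12 adipose arrays.

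**Figure D4:**
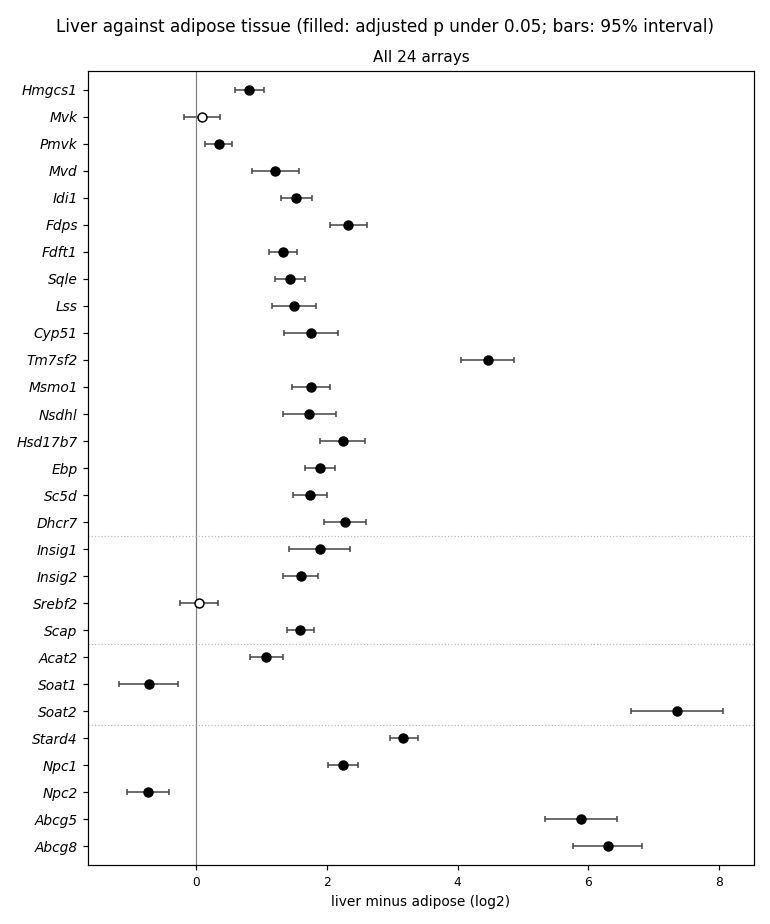
Difference between liver and adipose tissue (log2) for the 29 members over all 24 arrays, with 95% intervals from limma; filled points have an adjusted p under 0.05. Soat2, Abcg8, Abcg5 and Tm7sf2 lie farthest to the right, and Npc2 and Soat1 lie left of 0.

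In adipose tissue no member passed between genotypes. At ZT13 limma called 0 of 28 tested members, against 0.0428% of all genes, and 0 of 28 had an unadjusted p under 0.05, against 4.69% of all genes. At ZT1 it called 0 of 28, against 0.0% of all genes, and 3 of 28 (Soat2, Insig1 and Pmvk) had an unadjusted p under 0.05, against 7.76% of all genes. Soat2 entered the test only through the S714 groups, since it was detected above background on 1 of 3 S714G arrays at ZT1 and 2 of 3 at ZT13, against 3 of 3 S714 arrays at each time. At ZT13, 18 of 28 differences were positive, and at ZT1, 22 of 28 were negative. In the interaction of genotype and time limma called 0 of 28, against 0.107% of all genes, and 5 of 28 (Idi1, Npc1, Cyp51, Pmvk and Sqle) had an unadjusted p under 0.05, against 6.92% of all genes.

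At ZT13, 5 members were higher and 5 lower in S714G adipose tissue with no overlap between arrays (Pmvk, Acat2, Idi1, Sc5d and Ebp higher, Soat2, Insig2, Npc1, Soat1 and Fdft1 lower), against 24.8% of all genes, 14.7% higher and 10.1% lower. All S714G arrays of this comparison lay on slide 3 and all S714 arrays on slide 2. Genotype and slide therefore cannot be told apart within adipose tissue at ZT13. Soat2 was at -5.05, -4.44 and -5.45 in S714G, against -3.25, -4.14 and -3.41 in S714, and Insig2 at 1.45, 1.69 and 1.80 in S714G, against 2.17, 2.16 and 2.25 in S714. The S714G arrays lay below the S714 arrays for both genes, with differences of -1.38 for Soat2 and -0.55 for Insig2 that did not pass (limma adjusted p = 1.0 for each). Npc1, lower in S714G livers at this time, was at -0.54 in adipose tissue (limma adjusted p = 1.0), also with no overlap. The 8 hepatocyte markers had a mean log2 level of 1.07, 2.39 and 0.92 in S714G and 3.61, 1.60 and 3.49 in S714 adipose tissue at ZT13, and their part in the Soat2 value was not tested.

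Soat2 in adipose tissue at ZT1 was at -2.45, -5.18 and -4.76 in S714G, against -3.47, 0.14 and -2.62 in S714 (difference -2.15, limma adjusted p = 0.589). S714 replicate 2 stood far above the others. The same array had the highest mean log2 level of the 8 hepatocyte markers among the adipose arrays, 5.67, where the others ran between -2.10 and 3.61, and it also had the highest adipose Abcg5 (-0.17) and Tm7sf2 (2.60). Without it Soat2 differed by -1.08 (limma adjusted p = 0.939). The marker means at ZT1 were 3.47, 5.67 and 3.46 in S714 and 3.20, -2.10 and 2.34 in S714G. The S714 arrays thus lay above the S714G arrays in these markers also without S714 replicate 2. The part of those markers in the Soat2 value was not tested.

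Insig1 in adipose tissue at ZT1 was at 0.00, 0.07 and 2.35 in S714G, against 2.40, 2.23 and 1.55 in S714. S714G replicates 1 and 2, on the same slide as the S714 arrays, lay below all of them, and replicate 3, on slide 2, lay among them. The difference was -1.25 (limma adjusted p = 0.63), and -2.03 with slide as a term (limma adjusted p = 0.0107), where 0.633% of all genes were called. On slide 1 alone it was -2.03 (limma adjusted p = 0.821). Insig2 was at -0.59 (limma adjusted p = 0.749), and at -0.97 with slide as a term (limma adjusted p = 0.0471).

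Between times, S714G adipose tissue had 0 of 28 members called by limma, against 1.96% of all genes, 83 higher and 375 lower, or 136 higher and 263 lower after quantile normalisation. Without ZT1 replicate 3, which lay on another slide than replicates 1 and 2, 7 were called, against 40.3% of all genes. All ZT13 arrays lay on slide 3, and none of the ZT1 arrays did. In the full comparison 6 macrophage markers summed to 14.9 to 22.4 times the 75th percentile at ZT13 and 44.8 to 88.7 times at ZT1, and 4 of 6 were called lower at ZT13. Their part in the members' differences was not tested. Higher at ZT13 were then Insig1 (1.76), Lss (1.38), Acat2 (1.31), Dhcr7 (1.02), Npc1 (0.72) and Hmgcs1 (0.71), and lower was Mvk (-0.96).

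In S714 adipose tissue 2 of 28 passed, against 14.9% of all genes, with 1395 genes higher and 2095 lower, or 1872 higher and 1122 lower after quantile normalisation. The macrophage markers summed to 23.0 to 33.5 at ZT13 and 45.1 to 57.2 at ZT1. Npc1 was at 0.61, 0.85 and 0.56 at ZT13, against -0.47, -1.01 and -0.72 at ZT1, with no overlap (difference 1.41, SE 0.288, limma adjusted p = 0.0196). Pmvk was at 3.35, 2.82 and 3.43 at ZT13, against 4.04, 4.21 and 4.21 at ZT1 (difference -0.95, SE 0.225, limma adjusted p = 0.0259), while its second probe was at -0.01 (limma adjusted p = 0.983). These ZT13 and ZT1 arrays lay on different slides. Npc1 kept its call without ZT1 replicate 1 or 2 and Pmvk without ZT1 replicate 1, and each lost it without any other of the 6 arrays. The slide term left Npc1 at 0.46 (limma adjusted p = 0.669), and Insig1 at -2.54 was then the only member called (limma adjusted p = 0.0477), against 0.175% of all genes.

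**Figure D5:**
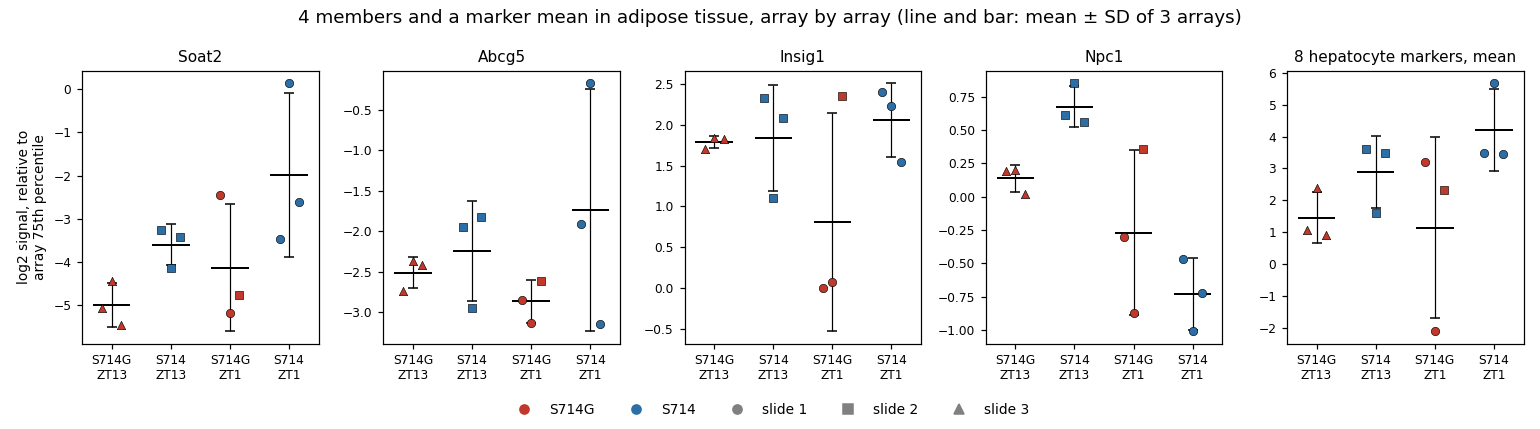
Levels of Soat2, Abcg5, Insig1 and Npc1 and the mean of 8 hepatocyte markers in each adipose array (log2 signal relative to the array's 75th percentile), with genotype by colour and slide by symbol; lines and bars are the mean ± SD of 3 arrays. S714 ZT1 replicate 2 is the highest array for Soat2, Abcg5 and the markers, and the S714G ZT1 array on slide 2 has Insig1 at 2.35 where the other 2 lie at 0.00 and 0.07.

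The genotype difference was set against itself between tissues for all members. At ZT13 Insig2 alone passed, with liver minus adipose at 2.10 (SE 0.370, limma adjusted p = 0.018), against 0.202% of all genes, and 1.86 with slide as a term (limma adjusted p = 0.0356), against 0.127% of all genes. At ZT1 Npc1 alone passed, at 1.49 (SE 0.309, limma adjusted p = 0.0275), against 1.4% of all genes, and 0.86 with slide as a term (limma adjusted p = 0.312). Mvd at ZT13 was at 1.51 (limma adjusted p = 0.332), so its liver difference was not shown to exceed that in adipose tissue.

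Another 31 genes of sterol and isoprenoid metabolism were counted beside the members, 29 of them tested in each tissue. Over all genes, limma called 3.03% between genotypes in livers at ZT13 and 46.6% at ZT1 (17.0% higher, 29.6% lower). Between times it called 2.01% in S714G livers and 52.3% in S714 livers, and in the liver interaction 31.9%. In adipose tissue it called 0.0428% between genotypes at ZT13 and 0.0% at ZT1, and between times 1.96% in S714G and 14.9% in S714. In liver minus adipose it called 75.3%. In livers at ZT13, 0 were higher and 1 lower in S714G, Nceh1, the neutral cholesteryl ester hydrolase, at -1.08 (limma adjusted p = 0.0235). In livers at ZT1, 8 were higher and 2 lower, led by Ggps1, geranylgeranyl diphosphate synthase, at 1.37 (limma adjusted p = 9.02e-05), Pdss2 at 1.10, Stard3, a late endosomal sterol-binding protein, at 1.22, and Nr1h2, the oxysterol receptor LXR-beta, at -0.81. Between ZT13 and ZT1, 1 was higher and 0 lower in S714G livers (Osbp, an oxysterol-binding protein, 0.69), and 10 were higher and 2 lower in S714 livers, among them Aacs, acetoacetyl-CoA synthetase, at 2.09. In the liver interaction 1 was positive and 5 negative, Nceh1 among them at -1.72. In adipose tissue 0 passed between genotypes at either time, 0 passed between times in S714G and 2 were higher at ZT13 in S714, Aacs (0.71) and Pdss2 (1.15). In liver minus adipose, 18 were higher and 7 lower, with the lowest p for Cyp27a1, the mitochondrial sterol 27-hydroxylase, at 4.39, and the largest difference among the 4 of lowest p for Lcat, the plasma cholesterol acyltransferase, at 7.44.

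The probes are placed by the array design on mouse build mm9. The Insig2 probes used lie on the minus strand at chr1:123202133-123202192 and, for the second one, chr1:123201085-123201144. The Mvd probe lies on the minus strand at chr8:124957750-124957809, the Npc1 probe on the minus strand at chr18:12349340-12349399 and the Soat2 probe on the plus strand at chr15:101993657-101993716. Exons under the probes are not given, as no annotation of that build was at hand.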

How the data were processed

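Values are scanner output of 24 one-colour Agilent arrays. Per the file headers, Feature Extraction 10.7.3.1 made the processed signal, a background-corrected intensity, and placed probes on build mm9. The authors' deposited table of log2 values matched log2 processed signal minus the array's 75th percentile within 0.01 for 100% of probes, so its scale, centring and direction are known; its column medians ran from -3.91 to -3.02.

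From the intensities, control spots and outlier spots (0.238% to 0.685%) were left out, spots of a probe averaged, and log2 signal taken relative to each array's 75th percentile (405 to 2015). Fits in a tissue took the probes that Feature Extraction marked as well above background in a whole group of 3 arrays, in any of its 4 groups, which left 29 members in liver and 28 in adipose tissue (without Abcg8), of 21848 and 23387 genes. Of 55681 probes, 26756 were named through RefSeq accessions, 3824 by current symbol and 639 by synonym, and 24462 kept the file's name. Each gene was read from its brightest probe in the tissue, and signals of different probes were not compared.

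limma 3.58.1 in R 4.3.3 fitted 4 group means over 12 arrays per tissue, or 8 over 24 arrays between tissues (24316 genes), two-sided, with Benjamini-Hochberg adjustment. Simulated data of the liver ZT13 comparison gave 49% recovery of genes shifted by 1 and 87% of genes shifted by 2 (log2), with 100 genes of each size. The number of arrays limits the precision. All 29 members are named, and up to 4 called genes of lowest p per contrast among the 31 other pathway genes. The members and lists were chosen with earlier results of these data known. Alternatives were background correction, normalisation, the deposited table, the probe filter and choice, the samples fitted, slide, the replicate number and single arrays left out. The human PER1 transcript was not analysed here. Python 3.11.15, pandas 2.3.3 and matplotlib 3.10.9 made tables and plots.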

Additional observations from a re-analysis of the deposited data

Results flagged for a closer look

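The S714G minus S714 difference in liver changed between ZT13 and ZT1, tested as an interaction, for Npc1 (-2.92), Abcg8 (-3.27), Abcg5 (-2.12), Nsdhl (-1.55), Soat2 (-0.96), Stard4 (-0.85), Insig2 (2.06), Srebf2 (1.28), Mvd (1.21) and Pmvk (0.82). Every S714 ZT1 liver array lay on slide 1 and no other liver array did, and 31.9% of all genes were called in this test.

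The S714G minus S714 difference was larger in liver than in adipose tissue for Insig2 at ZT13 (2.10) and for Npc1 at ZT1 (1.49). With slide as a term the value was 1.86 for Insig2 and 0.86 for Npc1.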

How the results depend on the processing

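Members' differences were recomputed under the alternatives that apply to each comparison, those on single slides and on the mean of a gene's probes to 1 comparison each. Of 5660 such values for 372 results, 172 lost a call, 79 gained one, 13 turned sign against a called value and 5396 kept their side of the threshold, of which 228, uncalled under both settings, changed sign. With slide as a fixed term, S714G minus S714 in liver at ZT1 became -0.27 for Hmgcs1, -0.21 for Lss, -0.08 for Nsdhl, 0.02 for Ebp, -0.38 for Dhcr7, -1.65 for Insig1 and -0.48 for Acat2, and ZT13 minus ZT1 in S714 livers became -0.54 for Lss, -1.06 for Nsdhl, -0.57 for Acat2 and -0.07 for Npc2. Quantile normalisation turned liver minus adipose for Mvk (-0.48) and Pmvk (-0.26). That slide fit has no liver array beside the S714 ZT1 arrays on slide 1.

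Counts of members called moved as follows, with the cause not tested. For S714G minus S714 in liver at ZT13, 5 became 3 without the probe filter, with all 24 arrays, with the slide term and with the replicate number as a block. At ZT1, 14 became 8 with 24 arrays and 1 with the slide term. For ZT13 minus ZT1 in S714G livers, 1 became 2 with normexp background correction, 0 without the filter, with 24 arrays or with the slide term, and 5 with slide as a random block. In S714 livers, 15 became 1 with the slide term. The liver interaction's 10 became 4 with 24 arrays and 2 with the slide term. In adipose tissue, the genotype difference at ZT1 had 0 and then 2 with the slide term, ZT13 minus ZT1 in S714G had 0 and then 1 with 24 arrays, and in S714 its 2 became 7 with normexp, 11 with 24 arrays, 1 with the slide term, 0 with the random block and 1 with the replicate block.

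Counts over all genes moved too. S714G minus S714 in liver at ZT13 had 663 genes, 441 with quantiles, 275 without the filter and 271 to 629 with 1 array left out. At ZT1 there were 10175 genes, 7356 with 24 arrays and 87 with the slide term added to those 24. ZT13 minus ZT1 had 440 genes in S714G livers, 89 without the filter, 261 with 24 arrays, 70 with the slide term, 1909 with the random block, 284 with the replicate block, and 96 to 147 with 1 array left out. In S714 livers there were 11422, 9140 with 24 arrays and 162 with the slide term. The liver interaction's 6978 became 3358 with 24 arrays and 295 with the slide term. ZT13 minus ZT1 in S714 adipose tissue had 3490 genes, 5780 with normexp (1558 higher, 4222 lower), 7909 with 24 arrays, 41 with the slide term, 11 with the random block, 1091 with the replicate block and 210 to 2833 with 1 array left out, and in S714G adipose tissue 458, 67 to 9424 with 1 array left out, 785 without the filter, 3670 with 24 arrays, 29 with the slide term, 1 with the random block and 146 with the replicate block. In adipose tissue, S714G minus S714 at ZT13 had 10 genes, 50 with 24 arrays, 21 with the slide term, 1 with the random block and 4 with the replicate block. At ZT1 it had 0, 4 with normexp, 1 with quantiles, 61 with 24 arrays, 148 with the slide term and 1 with the random block. The interaction there had 25, 39 with quantiles, 14 without the filter, 75 with 24 arrays, 2 with the random block and 10 with the replicate block.

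With 1 array left out, the counts ran from 3 to 4 for liver ZT13, 8 to 16 for liver ZT1, 0 to 0 for time in S714G livers, 9 to 21 in S714 livers, 7 to 15 for the liver interaction, 0 to 7 for time in S714G adipose tissue and 0 to 4 in S714 adipose tissue. The count for liver minus adipose stayed at 27, and those for genotype and for the interaction in adipose tissue at 0.

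Same-numbered arrays' deviations from their group means correlated between -0.518 and 0.144 over genes. Such correlations cannot show whether arrays of the same number share an animal, which the labels do not say. The block on replicate number moved the counts as given above, and the other counts by less than 1.5 times. Signal over background limits Abcg8 in adipose tissue to a bound, and Soat1 in liver and Soat2 in adipose tissue were above background on 9 of 12 arrays.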
